A study of Mus musculus with 24 samples.

Results

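The footprint-to-RNA ratio of each gene was measured in control mouse embryonic stem cells, that is, in cells that had not received the tRNA fragment inhibitor of the study. The libraries were chosen by their transfection alone: the 16 control libraries of 24, namely 4 ribosome footprint and 4 RNA libraries after transfection of an esiRNA pool against GFP and 4 of each after mock transfection. All came from E14, an established mouse embryonic stem cell line and the only line used. The 8 remaining libraries, from cells given LNA-containing oligonucleotides antisense to tRF-GG, a fragment of glycine tRNA, were used only for a comparison at the end. Footprints were RNAs of 26 to 32 nucleotides recovered from 80S ribosomes after digestion with RNases A and T1. RNA libraries were made from RNA isolated with Trizol, and how RNA was selected before library construction is not given in the sources used here. Nothing in the labels says that the libraries numbered 1 to 4 came from separate cultures, so the p-values measure only the spread between libraries, which may be technical.

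Ribosome profiling sequences the stretch of mRNA that a ribosome protects from nuclease. The number of footprints on a gene, set against the amount of its RNA, is a common measure of how heavily that RNA is loaded with ribosomes. Cells regulate the loading of particular classes of mRNA through features of the untranslated regions: an oligopyrimidine tract at the cap of ribosomal protein mRNAs (TOP mRNAs), short upstream reading frames in stress-response mRNAs, and iron-responsive hairpins in ferritin mRNAs. RNAs that remain in the nucleus do not meet cytoplasmic ribosomes.

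The deposited values were FPKM (fragments per kilobase of transcript, relative to the total of the library) for 23917 genes in each assay. After scaling between libraries within each table, 7739 genes with a mean of at least 5 scaled FPKM over the 8 control RNA libraries were ranked, 7512 of them with an mRNA accession and 227 with non-coding accessions only. The ratio is the difference between the mean log2(scaled FPKM + 1) in footprints and in RNA, relative to the median gene, which was set to 0. A ratio of 1 therefore means about 2-fold more footprints per RNA than the median gene. The added 1 draws genes with low values toward equal scaled FPKM in both assays, which lies above the median gene (median difference -1.05). For such genes it understates distances far below or far above the median gene, and can raise genes near it above 0. Each value is given with its standard error (SE) over 8 footprint and 8 RNA libraries. Both assays were divided by the length of the whole transcript, whereas ribosomes occupy the coding sequence, and the coding share of each transcript was not used here, so its part in the ranking was not tested. Levels are given as the lowest, median and highest scaled FPKM of 8 libraries.

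The libraries differed in content. Rn45s, the precursor of ribosomal RNA, took 18.6% to 38.0% of the summed FPKM in footprint libraries and 1.7% to 39.1% in RNA libraries, with a median of 3.7% and the highest share in mock RNA 1. GFP footprint 1 and mock footprint 2 were alike, with the lowest Rn45s shares of the footprint libraries, 18.6% and 19.1%. Their ratios of Myc were 0.23 and 0.21, against 1.08 to 1.76 in the other footprint libraries. Further footprint libraries also went together by 1 GFP and 1 mock library. Ratios of Ctgf were 2.0 in GFP footprint 2 and mock footprint 1, and 0.39 to 1.28 in the others. Those of Uqcrq were 2.84 and 2.64 in GFP and mock footprint 3, and 2.04 to 2.46 in the others. Those of Oaz2 were -1.92 and -1.93 in GFP and mock footprint 4, and -1.14 to -0.99 in the others. These genes were picked after their values were seen. The fit treated libraries as independent within each group. SEs and p-values of the ratio do not account for variation shared between GFP and mock libraries, and may be too small. The 8 footprint libraries may hold fewer than 8 independent values, and a fit without 1 of them still held its counterpart. Depth is unknown in absolute terms. Relative to the deepest library of each assay it went down to 24.8% among footprint libraries (mock footprint 4) and to 7.2% among RNA libraries (mock RNA 3). The RNA held the markers of embryonic stem cells, with 9 of 9 listed genes at 5 FPKM or more and a summed level of 2836 to 4236 per library. Of the markers of other cells such a culture could hold, 0 of 7 for fibroblast feeders reached that level (summed 3.16 to 7.47, with 3 of the 7 at 0 in all 8 RNA libraries), 0 of 5 for primitive endoderm (3.37 to 13) and 2 of 6 for trophoblast (6.0 to 55.5, highest Krt8).

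Annotated starts of 6 ribosomal protein genes are printed here as examples of the pyrimidine start; they were chosen for these letters, and to cover the range of ratios of the 14 ribosomal protein genes that have them. Each line gives 5 bases before and 20 bases after the transcription start of the gene in RefSeq (GRCm38.p6), with the run of pyrimidines from the first transcribed base in capitals. The genes lie on chr9:114982720-114982744 (minus strand, Rps27rt), chr11:114668575-114668599 (plus, Rpl38), chr7:4792960-4792984 (plus, Rpl28), chr3:90213629-90213653 (minus, Rps27), chr9:120571512-120571536 (plus, Rpl14) and chr7:118116128-118116152 (minus, Rps15a).
Rps27rt: ccttgCTTTCCggcggtgacgacct
Rpl38: tcgttCTTTCCCCgttctcttcggt
Rpl28: tgtctCTCTTTCCgtctccggccgc
Rps27: tcgctCCTTTCCggcggtgacgacc
Rpl14: tctctCTTCTCgctgagcgccgcca
Rps15a: gccatCTTCCCTCgccggtgagtga
Their log2 ratios were 4.27, 1.72, 1.43, 0.55, -0.09 and -0.78 in the order printed. Rps27rt and Rps27 are similar copies whose single values are uncertain, as given with the ribosomal proteins.

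Genes differed widely in their ratio. The quartiles over genes were -0.51 and 0.49, and the 5th and 95th percentiles were -1.22 and 1.18, a 5.29-fold range. The SD over genes was 0.8, against a median SE per gene of 0.16. A gene was called high or low where limma's treat test placed its ratio more than 2-fold from the median gene at a Benjamini-Hochberg adjusted p under 0.05. By this rule 85 genes (1.1% of the 7739) were high and 176 (2.27%) were low. Where the tables were aligned by summed FPKM instead, the median gene lay at -0.42 and the calls were 40 high and 767 low, so every high and low below is relative to the median gene. Of genes with an mRNA accession, 72 (0.958%) were high and 145 (1.93%) low. In each of these genes all 8 footprint libraries lay on the same side of the median gene. This is no separate support, since the calls were made from the same libraries. Of the 227 genes with non-coding accessions only, 13 (5.73%) were high and 31 (13.7%) were low.

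**Figure D1:**
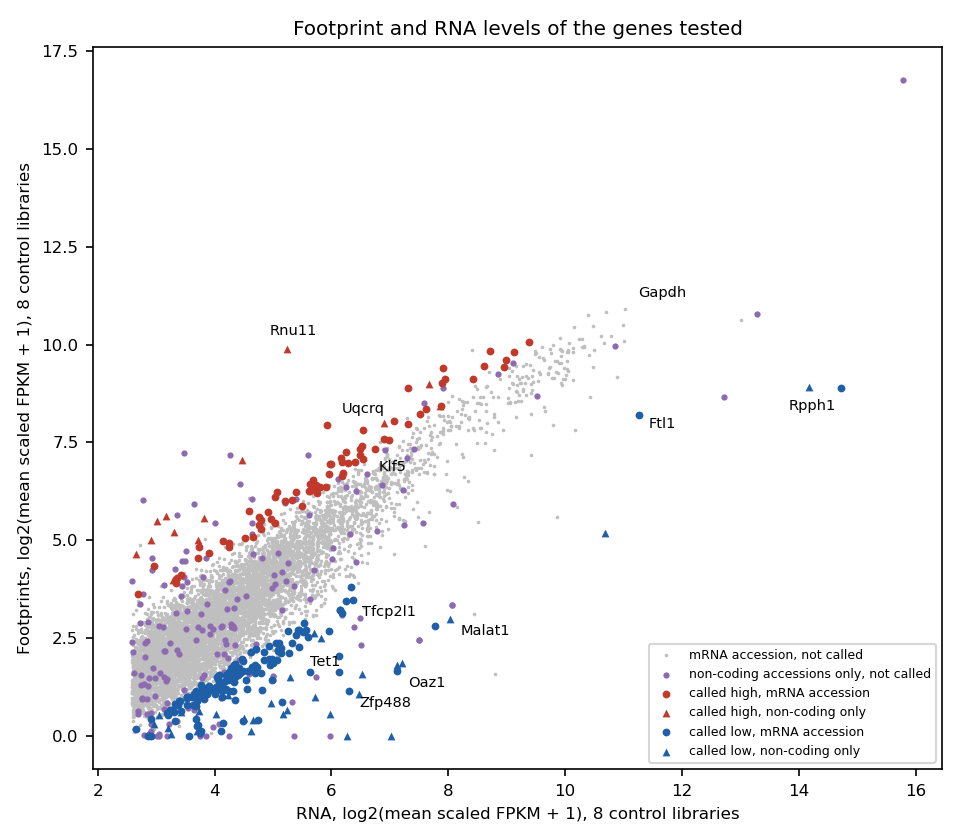
Mean footprint level (y axis) against mean RNA level (x axis), both as log2(scaled FPKM + 1) over 8 control libraries, 1 point per gene tested. Red points were called high (85) and blue points low (176); circles have an mRNA accession and triangles only non-coding accessions; named genes are described in the text.

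Subunits of the respiratory chain, the enzyme complexes of the inner mitochondrial membrane that pass electrons to oxygen and make ATP, had a median ratio of 1.07 over 74 members tested of 75 in the files, against 0 for all genes tested. All 74 had a ratio above 0, 12 were called high (16.2%, against 1.1% of all genes) and none low. The median over members was above 0 in all 8 footprint libraries, from 0.96 to 1.48. Complex IV had a median of 1.29 with 3 of 10 members high, complex I 1.08 with 6 of 36, ATP synthase 1.06 with 2 of 15, complex III 0.69 with 1 of 9, and complex II 0.48 with 0 of 4.

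Uqcrq, a small subunit of complex III, had 181, 202 and 315 scaled FPKM in footprints and 74.6, 95.9 and 108 in RNA. Its log2 ratio was 2.32 ± 0.15, or 4.98-fold the median gene, with an adjusted p of 8.21e-06. All 8 footprint libraries lay between 2.04 and 2.84, clear of the median gene. Uqcr10, another small subunit of the same complex, stood near the median gene at 0.04 ± 0.19, with 51.5, 70.8 and 123 FPKM in footprints and 118, 151 and 196 in RNA. Ndufab1, the acyl carrier protein that also serves complex I and is counted outside the list, was at 2.29 ± 0.19 (adjusted p 0.000281). The accessory complex I subunits Ndufb2 and Ndufs5 were at 1.96 ± 0.17 and 1.88 ± 0.15. Atp5j, a coupling subunit of ATP synthase, was at 1.99 ± 0.16 and Cox7c, a small subunit of cytochrome c oxidase, at 1.78 ± 0.16, both called high. Sdhd, a membrane anchor of complex II, was not called at 0.36 ± 0.13.

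mRNAs for proteins of the cytosolic ribosome lay mostly above the median gene. Large-subunit ribosomal protein genes had a median ratio of 0.74 (51 tested of 52, 45 above 0, 1 high, 0 low) and small-subunit genes 0.79 (34 of 34, 30 above 0, 4 high, 0 low). The shares high were 1.96% and 11.8%, against 1.1% of all genes. The medians stayed above 0 in every footprint library, from 0.54 to 1.09 and from 0.51 to 1.13. Most members were thus within 2-fold of the median gene, and few were called. Rps29 had 491, 902 and 1356 FPKM in footprints and 312, 375 and 590 in RNA, a ratio of 2.10 ± 0.23 (adjusted p 0.00413). Rpl38 followed with 831, 968 and 1533 FPKM in footprints, 491, 664 and 780 in RNA and a ratio of 1.72 ± 0.16 (adjusted p 0.0068). The footprint libraries lay between 1.32 and 2.78 for Rps29 and between 1.38 and 2.27 for Rpl38, all above the median gene. Rps16 (2.81 ± 0.37) and Rps13 (1.53 ± 0.15) were also high, the call of Rps13 being lost in 9 of the 16 fits that left out 1 library.

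At the other end, 3 ribosomal protein genes of very high RNA level had ratios below 0 that were not called. Rps2 had 434, 516 and 860 FPKM in footprints and 1269, 2039 and 2164 in RNA, a ratio of -0.69 ± 0.17. Rpsa, the laminin receptor protein of the small subunit, was at -0.78 ± 0.15, and Rplp0, of the ribosomal stalk, at -0.71 ± 0.16. RefSeq holds 12 pseudogene symbols for Rps2, 12 for Rpsa and 1 for Rplp0, and among the genes called high 2 for Rps16, 2 for Rpl38 and 1 for Rps29. How reads were divided among such copies was not tested. Rpl26 (-4.18 ± 0.94, adjusted p 0.0694) was not called. Its libraries ranged from 15 to 645 FPKM in RNA and from 0 to 15.1 in footprints, and it has 6 pseudogene symbols.

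Single values of near-identical genes were unstable while their sums were not. Rps27rt had 0, 131 and 687 FPKM in footprints and 0, 0 and 1098 in RNA (ratio 4.27 ± 2.07), and Rps27 had 8.27, 435 and 626 in footprints and 7.16, 681 and 1079 in RNA (0.55 ± 1.12). Summed over both, the ratio was 0.45, with footprint libraries from -0.1 to 0.83. In the same way Rpl31 and its pseudogene copy summed to 1.28 from members at -0.7 and 2.31, and Rpl14 and its copy to 0.85 from members at -0.09 and 2.75. The call of Rpl31-ps12 as high (2.31 ± 0.31), and that of Rps15a-ps4 (2.38 ± 0.36) beside its parent Rps15a (-0.78 ± 0.27), are therefore uncertain, and the latter was lost in 7 of 16 fits without 1 library. These sums were chosen after the values were seen.

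A start of the TOP kind was searched for as a C at the annotated first base followed by 4 bases that are each C or T, on the transcribed strand only. It was present in 22.2% of the 63 ribosomal protein genes that had a RefSeq window, in 2.48% of the 6168 tested coding genes with one, and in 2.49% of all 27025 windows. Where the letters could begin up to 10 bases from the annotated first base, the shares were 58.7%, 32.1% and 30.8%. The ratios below use the exact start. The 14 ribosomal protein genes with these letters had ratios from -0.78 to 4.27 and a median of 1.04, and the 49 others a median of 0.73. Over all coding genes the medians were 0.15 for 153 genes with the letters and 0.00 for 6015 without. Annotated starts may differ from those used in these cells, so the absence of the letters says only that they are not in this window.

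Other TOP mRNAs, outside the ribosome proper, had a median of 0.66 (25 tested, 21 above 0, 0 low), with 1 high, or 4.0% against 1.1% of all genes. The member called high was Hnrnpa1, described with the RNA-binding proteins. Npm1, a nucleolar chaperone of ribosome assembly, stood at 1.10 ± 0.14 and Tpt1 at 0.73 ± 0.21. Eef1a1, which brings aminoacyl-tRNA to the ribosome, had 1878, 2245 and 3601 FPKM in footprints and 3207, 3639 and 3966 in RNA, a ratio of 0.47 ± 0.15. Eef2 (-0.12 ± 0.14), Pabpc1 (-0.42 ± 0.15) and Eif4b (-0.63 ± 0.11) lay at or under the median gene, and none of these 6 was called. TOP mRNAs other than Hnrnpa1 thus spanned both sides of the median gene.

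Initiation factors had a median of 0.57 (33 tested, 26 above 0, 0 called). Within them, the 12 subunits of eIF3, the scaffold of the preinitiation complex, all lay above 0 with a median of 0.65, from Eif3l at 0.20 to Eif3g at 1.31 ± 0.14. The 7 members of the eIF4 group, which bind the cap and unwind the leader, had a median of -0.34 with 2 above 0. The lowest was Eif4g2, a scaffold related to eIF4G that lacks the cap-binding contact, at -1.36 ± 0.14 (adjusted p 0.206). It had 19.8, 24.2 and 29.7 FPKM in footprints against 96.7, 133 and 193 in RNA, and every footprint library lay below the median gene, from -1.61 to -1.05. Elongation and release factors had a median of 0.47 (11 tested of 13) and aminoacyl-tRNA synthetases 0.45 (20 tested, 19 above 0, from Vars at -0.02 to Dars at 0.84), with 0 called in both lists.

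Mitochondrial ribosomal proteins, made in the cytosol for the ribosome inside mitochondria, had a median of 0.73 (75 tested of 76, 69 above 0, 2 high, 0 low). The share high was 2.67%, against 1.1% of all genes. Both subunits were alike in their medians, 0.73 for the large and 0.72 for the small. Mrps6 was the highest at 1.90 ± 0.15 (adjusted p 0.000487), with 19.4, 21.7 and 27 FPKM in footprints and 8.18, 12.4 and 17.9 in RNA, and Mrpl15 was the other call at 1.47 ± 0.12, not called without GFP footprint 1 or GFP footprint 4. The lowest was Mrpl18 at -0.48 ± 0.14, not called.

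**Figure D2:**
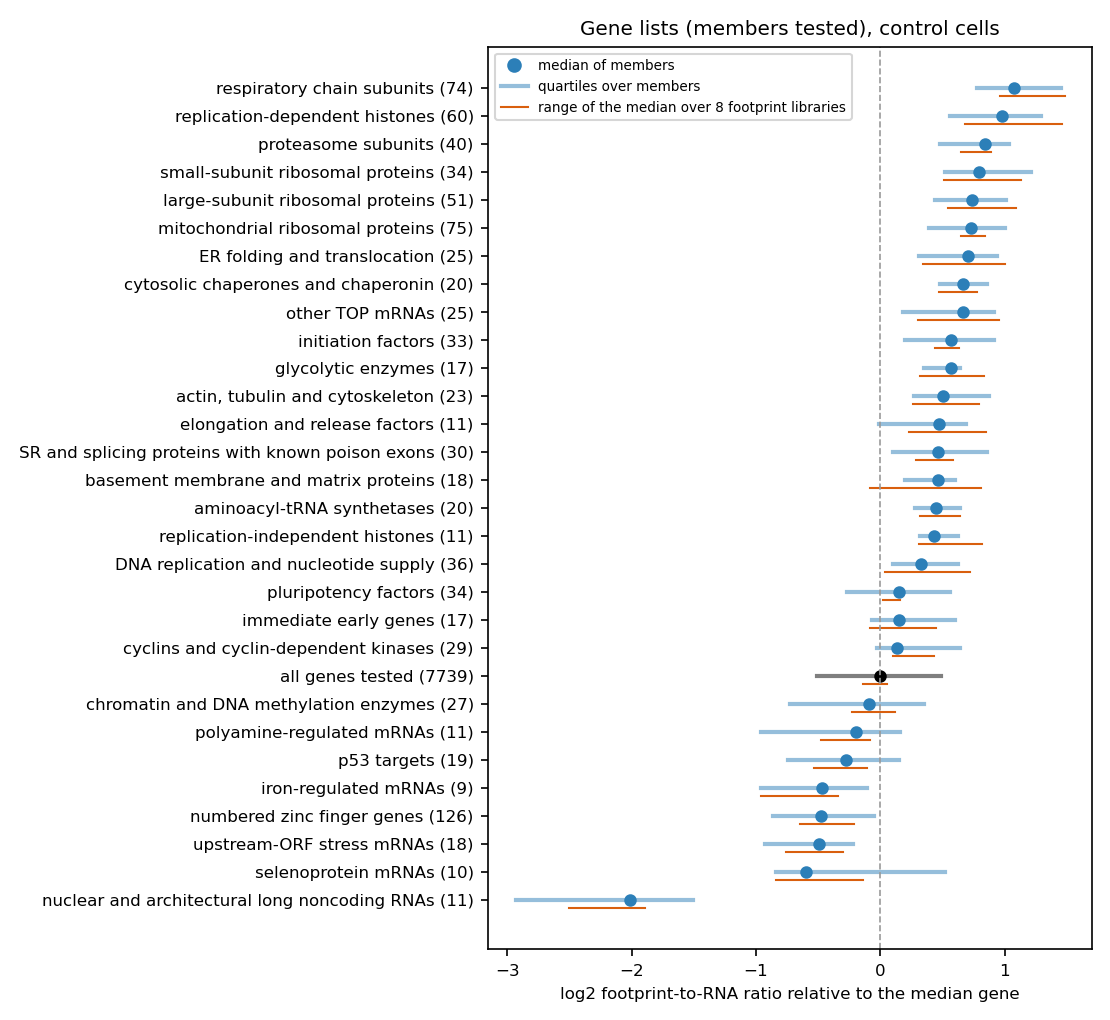
Median log2 footprint-to-RNA ratio (x axis, relative to the median gene at 0) of each gene list, with the number of members tested. Blue bars are quartiles over members and orange lines the range of the median over 8 footprint libraries. Respiratory chain subunits lie farthest right among the lists shown (1.07) and nuclear long noncoding RNAs farthest left (-2.01).

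Genes for proteins that bind RNA held several of the high ratios. Among genes for SR and other splicing proteins with known poison exons, Hnrnpa2b1 and Hnrnpd were high and none of the 30 was low, while the list's median was 0.46. The nuclear speckle protein Son (-1.06 ± 0.11) and the cyclin Ccnl2 (-0.79 ± 0.15) were its low end and were not called.

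Hnrnpa1, a shuttling hnRNP that controls splice site choice, had 359, 482 and 596 FPKM in footprints and 91.6, 129 and 314 in RNA, a ratio of 2.71 ± 0.21 (adjusted p 2.32e-05). Hnrnpa2b1, its close relative, had 224, 262 and 302 in footprints and 81.8, 139 and 170 in RNA, a ratio of 2.06 ± 0.15 (adjusted p 9.53e-05). The footprint libraries of both genes lay above the median gene throughout, from 2.33 to 3.06 and from 1.83 to 2.27. Taken by RNA library over the mean footprints, the ranges were wider, from 1.62 to 3.39 and from 1.67 to 2.72. Hnrnpd (1.93 ± 0.19), Hnrnph3 (2.11 ± 0.29) and Hnrnpc (1.58 ± 0.14) were called as well, Hnrnph3 losing its call in 7 of 16 fits without 1 library. These calls led to a wider count after the values were seen, which is a description and no evidence of its own. Of 20 hnRNP genes 19 lay above 0 and 5 were high (25%, against 1.1% of all genes, median 1.03). Of 12 genes for proteins of the spliceosomal snRNPs 11 lay above 0 and 3 were high (also 25%, median 1.26). The 3 were Snrpd3 (2.06 ± 0.17) and Snrpf (1.93 ± 0.18), of the Sm ring, and Snrpc (2.06 ± 0.15), of the U1 particle. Taf15, an RNA-binding protein of transcription, was high at 1.82 ± 0.16 and Pcbp1, a poly(C)-binding protein, at 1.96 ± 0.20; both were picked after their values were seen.

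Classes that fold, degrade or fuel lay above the median gene with few calls. Proteasome subunits had a median of 0.84 (40 tested of 43, 38 above 0, 0 called). The core particle, which holds the proteolytic chamber, had a median of 0.99 with all 16 members above 0, and the regulatory particle, which unfolds substrates, 0.69 with all 20 above 0. The lowest was Psme4, an alternative activator of the core, at -1.01 ± 0.21, with 6.76, 12.4 and 16.5 FPKM in footprints and 36.7, 47.8 and 93.5 in RNA. Cytosolic chaperones had a median of 0.66 with all 20 members tested of 22 above 0, the highest being Dnaja1 at 1.23 ± 0.14, and 0 called.

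Genes for folding and translocation in the endoplasmic reticulum had a median of 0.70 (25 tested, 22 above 0), with 1 high, or 4.0% against 1.1% of all genes. Pdia3, a disulfide isomerase for glycoproteins, was the call: 151, 189 and 227 FPKM in footprints, 74.2, 119 and 166 in RNA, ratio 1.78 ± 0.17 (adjusted p 0.00529). The chaperones Hspa5 (1.22 ± 0.14) and Hsp90b1 (1.25 ± 0.18) were beyond 2-fold in value but not called, and the translocon genes Sec61a1 (-0.47 ± 0.17) and Ssr3 (-0.69 ± 0.20) lay below 0. Glycolytic enzymes had a median of 0.57 (17 tested, 16 above 0, 0 called), and Gapdh, among the most abundant mRNAs, was at 0.94 ± 0.12 with 1819, 1858 and 2112 FPKM in footprints and 1554, 2131 and 2402 in RNA. The median was 0.50 for actin, tubulin and other cytoskeletal genes (23 tested, 20 above 0) and 0.46 for basement membrane and matrix proteins (18 tested, 15 above 0), with 0 called in either.

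Some high genes belonged to none of these classes: 38 of the 72 with an mRNA accession were in no list. S100a11, a calcium-binding protein (2.33 ± 0.33), Pfdn2, of the prefoldin chaperone (2.16 ± 0.23), and C1qbp, a mitochondrial matrix protein (2.12 ± 0.18), were among the 12 highest, S100a11 without a call where mock footprint 3 was left out. Sod1 and Txn1, which remove superoxide and reduce disulfides, were at 1.99 ± 0.24 and 1.66 ± 0.17, and the tetraspanin Cd9 at 1.67 ± 0.15; these 3 were picked after their values were seen.

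Replication-dependent histones, whose mRNAs end in a stem-loop instead of a poly(A) tail, had a median of 0.98 (60 tested of 63, 51 above 0, 3 high, 0 low). The share high was 5.0%, against 1.1% of all genes. The genes of 1 histone type are nearly identical in sequence, and single values ranged from Hist1h2ap at -5.15 ± 1.88 to Hist1h2ao at 3.81 ± 1.02, neither called. Sums over a type were far closer together. Summed over its genes, histone H4 had 6703, 7228 and 12212 FPKM in footprints and 3876, 7768 and 12565 in RNA, a ratio of 1.15 (range over footprint libraries 0.89 to 1.76). The sums were 1.15 for H2A, 0.85 for H3 and 0.46 for H2B, the last from -0.06 to 0.92, so that 1 or more libraries crossed the median gene. The 3 calls, Hist1h2ag (2.21 ± 0.23), Hist1h4i (1.76 ± 0.19) and Hist1h2ae (1.66), come from these families and are uncertain. Replication-independent histones, with polyadenylated mRNAs, had a median of 0.43 (11 tested, all above 0, 0 called). The recovery of RNAs with and without a poly(A) tail cannot be told apart here from their ribosome load.

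Low classes were fewer. mRNAs known for inhibitory upstream reading frames in the integrated stress response had a median of -0.49 (18 tested, 15 below 0, 0 high, 2 low), below 0 in all 8 footprint libraries (-0.76 to -0.30). The share low was 11.1%, against 2.27% of all genes. The calls were Mief1, a mitochondrial dynamics factor whose leader encodes a microprotein, at -1.45 ± 0.12 (adjusted p 0.0306), and Tmem183a at -1.40 ± 0.12 (adjusted p 0.0482), and they were lost in 9 and 13 of 16 fits without 1 library. Mief1 had 1.86, 2.61 and 3.17 FPKM in footprints and 15, 19.9 and 21.8 in RNA. Atf4, the transcription factor at the centre of the response, had 45.9, 49.0 and 66.4 in footprints and 151, 211 and 257 in RNA, a ratio of -0.88 ± 0.13 that was not called. Its footprint libraries lay between -1.04 and -0.52, all under the median gene. Ppp1r15b, which keeps eIF2 dephosphorylated in unstressed cells, was at -1.16 ± 0.15, while Trib3 (0.01 ± 0.16), Gadd45a (0.31 ± 0.26) and Uchl5 (0.92 ± 0.15) were at or above the median gene.

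Iron-regulated mRNAs had a median of -0.47 (9 tested of 11, 7 below 0), with 1 low, or 11.1% against 2.27% of all genes. Ftl1, the ferritin light chain, whose leader carries an iron-responsive element, had 208, 276 and 398 FPKM in footprints against 2013, 2374 and 3643 in RNA. Its ratio was -2.01 ± 0.16 (adjusted p 0.000373), 4.04-fold under the median gene, and the footprint libraries ranged from -2.47 to -1.54. RefSeq has 2 pseudogene symbols for Ftl1. The heavy chain Fth1, with the same kind of element, had 39.7, 57.4 and 75.9 in footprints and 173, 257 and 411 in RNA, a ratio of -1.22 ± 0.20 that was not called. Tfrc, the transferrin receptor, whose elements lie after the coding sequence and act on mRNA stability, was at -0.14 ± 0.25, and Sdhb, listed here because the Drosophila mRNA carries such an element, at 1.06 ± 0.13.

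Polyamine-regulated mRNAs had a median of -0.20 (11 tested of 12, 8 below 0), with 1 low, or 9.09% against 2.27% of all genes. Oaz1, the antizyme that brings ornithine decarboxylase to the proteasome and is made by programmed frameshifting, had 0, 1.35 and 5.23 FPKM in footprints and 52.7, 139 and 244 in RNA. At -4.66 ± 0.46 (adjusted p 0.000183) it was among the lowest mRNAs measured, although its footprint libraries spread from -5.92 to -3.28; RefSeq has 1 pseudogene symbol for it. Oaz2, its paralog, was at -1.29 ± 0.16, Odc1, the enzyme itself, at -0.63 ± 0.11, and Azin1, the antizyme inhibitor, at -0.23 ± 0.20, none called. The S-adenosylmethionine decarboxylase genes Amd1 (1.28 ± 1.10) and Amd2 (-2.25 ± 1.08) are similar copies, and their sum was at -1.11 with footprint libraries from -1.57 to -0.82. Selenoprotein mRNAs, which decode a stop codon as selenocysteine, had a median of -0.60 (10 tested of 20, 7 below 0, 0 called), from Sephs2 at -1.10 ± 0.12 and Gpx1 at -0.96 ± 0.14 to Selk at 1.32 ± 0.16.

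Numbered zinc finger genes, mostly DNA-binding repressors, had a median of -0.48 (126 tested of 357, 96 below 0, 0 high, 7 low, or 5.56% low against 2.27% of all genes). Zfp488 was the lowest, with 0.274, 1.31 and 1.92 FPKM in footprints and 47.4, 77.9 and 99.8 in RNA, a ratio of -4.11 ± 0.19 (adjusted p 3.83e-09). Zfp91 (-2.33 ± 0.17) and Zfp65 (-2.24 ± 0.27) followed, and every footprint library of the 3 genes lay below -1. The highest member was Zfp622, a ribosome assembly factor, at 1.06 ± 0.13. Only members with at least 5 FPKM in RNA were ranked.

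Chromatin and DNA methylation enzymes had a median of -0.09 (27 tested of 28, 12 above 0, 0 high, 1 low) and were spread wide. The share low was 3.7%, against 2.27% of all genes. Tet1, which oxidises methylcytosine in embryonic stem cells, had 1.79, 3.88 and 5.48 FPKM in footprints and 30.3, 37.2 and 70.0 in RNA, a ratio of -2.12 ± 0.20 (adjusted p 0.00133). Tet2 (-1.62 ± 0.20, adjusted p 0.0793) and the methyltransferase Kmt2d (-1.53 ± 0.20, adjusted p 0.181) lay low without a call. Dnmt3l, the cofactor of new DNA methylation, was at 1.02 ± 0.29 and Eed, a Polycomb subunit, at 0.72 ± 0.14. Outside the list, and picked after their values were seen, the histone methyltransferases Nsd1 (-1.82 ± 0.16), Setd2 (-1.73 ± 0.18) and Kmt2c (-1.5 ± 0.14), the corepressor Ncor1 (-1.79 ± 0.13) and the chromodomain proteins Cbx5 (-1.84 ± 0.14) and Cbx7 (-1.66 ± 0.12) were all called low, Kmt2c not in 10 of 16 fits without 1 library. Other chromatin genes outside the list were not counted, so these picks do not describe the class.

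Single genes of RNA silencing and decay were also among the low calls. They were picked after their values were seen and their classes were not counted, so they do not describe those classes. The Argonautes Ago1 and Ago2, which hold microRNAs, were at -1.55 ± 0.13 and -1.53 ± 0.14, Ago2 losing its call in 6 of 16 fits without 1 library. The nonsense-mediated decay factors Smg1 and Smg5 were at -1.70 ± 0.16 and -2.09 ± 0.13, and the decapping enzyme Dcp2 at -1.81 ± 0.16. Smg5 had 2.70, 3.27 and 4.21 FPKM in footprints against 25.5, 38.1 and 47.7 in RNA, and all its footprint libraries lay between -2.32 and -1.83. In all, 132 of the 145 low genes with an mRNA accession were in no list.

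Further genes among the 12 lowest with an mRNA accession differed in level. Raver1, a nuclear partner of splicing repressors, had 0, 0.314 and 0.723 FPKM in footprints and 20.4, 25.5 and 36.6 in RNA (-3.27 ± 0.16). Mid1, a microtubule-bound ubiquitin ligase, had 2.62, 3.07 and 3.91 against 44.3, 72.3 and 87.4 (-3 ± 0.15), and Cmah, the hydroxylase of sialic acid, 2.79, 5.88 and 9.95 against 70.8, 193 and 620 (-3.66 ± 0.40). All 3 genes were low in every footprint library. Gm20594, a predicted gene with an mRNA accession, was the lowest at -5.20 ± 0.70 with 47.1, 312 and 1341 FPKM in footprints and 9679, 19390 and 55731 in RNA.

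Pluripotency factors, the transcription factors and signals that keep these cells undifferentiated, lay on both sides of the median gene. The median was 0.15 (34 tested of 37, 19 above 0), with 1 high and 1 low. Each call is 2.94% of the list, near the 1.1% high and 2.27% low of all genes. Klf5, a Krüppel-like factor, had 144, 171 and 191 FPKM in footprints and 55.8, 89.9 and 138 in RNA, a ratio of 1.97 ± 0.15 (adjusted p 0.000448). Tfcp2l1, a factor of the naive state, had 7.92, 9.76 and 14.1 in footprints and 55.7, 81.5 and 116 in RNA, a ratio of -1.82 ± 0.17 (adjusted p 0.00331). Their RNA levels overlapped, while their footprint levels did not.

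Pou5f1 (Oct4) had 284, 337 and 390 FPKM in footprints and 460, 851 and 1167 in RNA, a ratio of -0.15 ± 0.17. Sox2 was at 0.39 ± 0.14, Nanog at 0.56 ± 0.17 and Zfp42 (Rex1) at 0.48 ± 0.13, so the core factors lay within 2-fold of the median gene. Among the Krüppel-like factors, Klf2 was at 1.16 ± 0.19 and Klf4 at -0.19 ± 0.18, both uncalled. Dppa5a, the most abundant marker, had 1225, 1810 and 2057 in footprints and 932, 1314 and 1987 in RNA (1.43 ± 0.17, adjusted p 0.22), and Utf1 was at 1.65 ± 0.24 (adjusted p 0.137). Members below 0 without a call included Fgf4 (-1.19 ± 0.13), Lin28a (-1.09 ± 0.21), Rif1 (-0.92 ± 0.21), Sall4 (-0.85 ± 0.12), Rex2 (-0.76 ± 0.25) and Esrrb (-0.52 ± 0.13).

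**Figure D3:**
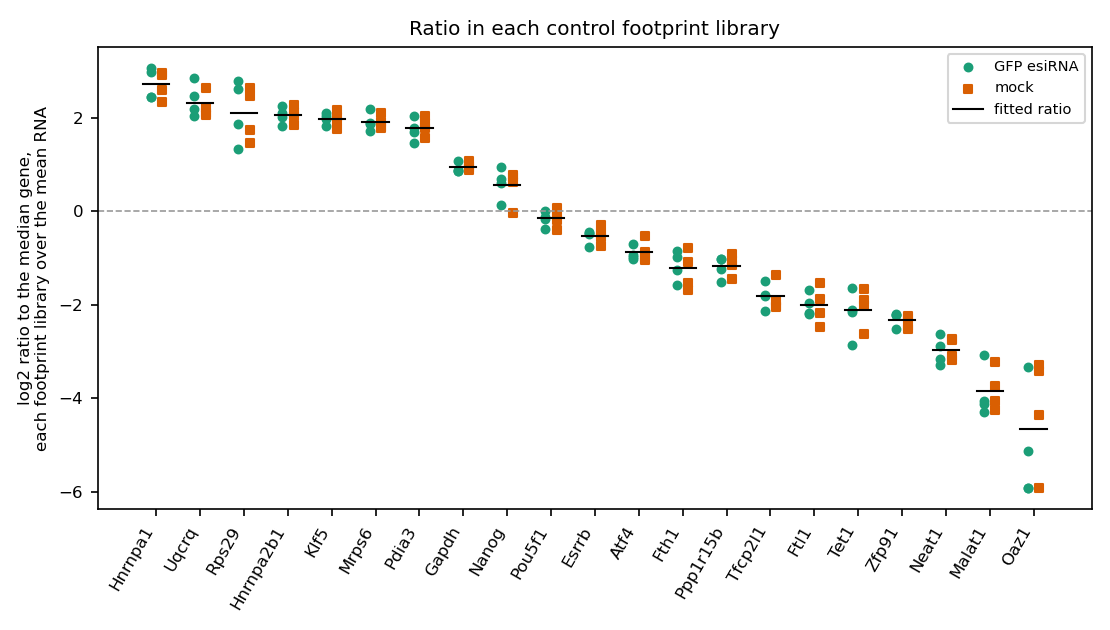
Log2 ratio (y axis, relative to the median gene) of named genes in each control footprint library, taken over the mean of the 8 RNA libraries. Green circles are the 4 GFP esiRNA libraries, orange squares the 4 mock libraries and black lines the fitted ratios. Klf5 lies between 1.75 and 2.16 and Tfcp2l1 between -2.13 and -1.37, and the spread is widest for Oaz1.

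Growth and checkpoint lists lay near the median gene. Cyclins and cyclin-dependent kinases had a median of 0.13 (29 tested, 20 above 0, 0 called), with Cdkn2a highest at 1.62 ± 0.19 (adjusted p 0.0665) and Ccng1, a p53 target, lowest at -1.39 ± 0.21. DNA replication and nucleotide supply genes had a median of 0.33 (36 tested, 29 above 0), immediate early genes 0.15 (17 tested of 29, 12 above 0, Myc at 1.13 ± 0.32), and p53 targets -0.28 (19 tested of 23, 11 below 0, Zmat3 at -1.29 ± 0.12), with 0 called in each.

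Long noncoding RNAs of the nucleus formed the lowest list, with a median of -2.01, 11 of 11 tested members below 0 and 8 called low, or 72.7% against 2.27% of all genes. Malat1, a component of nuclear speckles, had 4.64, 5.66 and 12.1 FPKM in footprints and 117, 191 and 605 in RNA, a ratio of -3.85 ± 0.30 (adjusted p 8.87e-06). Neat1, the scaffold of paraspeckles, was at -2.96 ± 0.24 and Tug1 at -3.11 ± 0.21. The imprinted transcripts Rian (-2.90 ± 0.19) and Kcnq1ot1 (-2.01 ± 0.16) were low too, as was Firre (-1.57 ± 0.15), which had no call without GFP footprint 4, mock footprint 2 or GFP RNA 4. Their footprint libraries reached no higher than -1.72 for any of Malat1, Neat1, Tug1, Rian and Kcnq1ot1.

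Noncoding RNAs as a whole were spread to both sides: the 227 genes with non-coding accessions had a median of -0.10 and quartiles of -1.49 and 1.23, wider than the -0.50 and 0.48 of genes with an mRNA accession. Of these 227 genes 13.7% were called low and 5.73% high, against 2.27% and 1.1% of all genes. Small nucleolar and Cajal body RNAs had a median of 0.67 (41 tested of 119), with 3 high (7.32%) and 2 low (4.88%). With an RNA mean of at least 20 FPKM the median was -1.12. The list is mixed: genes of the RefSeq type snoRNA had a median of 1.2 (37 tested, 25 above 0). Those of the guide RNA type, which holds Scarna13, had -2.05 (6 tested, 5 below 0). Rnu11, the U11 RNA of the minor spliceosome, had 232, 470 and 2935 FPKM in footprints and 0, 23.9 and 84.6 in RNA, the highest ratio of any gene at 5.91 ± 0.93 (adjusted p 0.00535). Snord49b (4.63 ± 0.91) and Snora75 (3.96 ± 0.69) were high, and Snora62 (-2.46 ± 0.29) and Scarna13 (-4.37 ± 0.54) low. The call of Snord49b was lost in 11 of 16 fits without 1 library. Such RNAs are not translated, so a fragment of 26 to 32 nucleotides in the 80S fraction is not by itself a ribosome footprint; the source of these fragments was not tested. The RNA component of RNase P, Rpph1, had 2415, 17696 and 42733 FPKM in RNA and 230, 300 and 1438 in footprints (-4.06 ± 0.65), and the related Rprl3 was at -4.52 ± 0.93, with its call lost in 10 of 16 fits without 1 library. Rn45s, also a source of fragments in the ribosome fraction, was at 3.19 ± 0.69 (adjusted p 0.0931), with RNA from 6121 to 279596 FPKM. Bc1, a cytoplasmic noncoding RNA best known from neurons, was low at -3.51 ± 0.59.

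The 3 microRNA genes called are shown with their mature RefSeq sequences, seed bases 2 to 8 in capitals, because their entries lay at the extremes although a mature microRNA is shorter than the fragments collected. The mature forms lie on chr5:98475616-98475636 (minus strand, miR-703), chr13:21896930-21896950 (minus, miR-1983) and chr16:28599940-28599961 (minus, miR-690).
miR-703: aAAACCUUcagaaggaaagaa
miR-1983: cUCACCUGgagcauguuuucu
miR-690: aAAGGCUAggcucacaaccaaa
They measure 21 nucleotides, or 22 for miR-690, and no seed is shared among them. Mir690 had 7.35, 38.5 and 140 FPKM in footprints and 0, 0 and 35.3 in RNA (4.59 ± 0.93, adjusted p 0.0363), and Mir1983 35.8, 67.1 and 537 against 6.62, 14.7 and 58.7 (3.40 ± 0.59, adjusted p 0.0261). Mir703 was listed at 0 in all 8 footprint libraries and had 0, 60.7 and 175 FPKM in RNA, and was called low (adjusted p 0.0361). These 3 calls were weak: without 1 library they were lost in 11, 8 and 14 of 16 fits. Only 27 of 1120 microRNA genes reached 5 FPKM in RNA, and 2 were high (7.41%, against 1.1% of all genes) and 1 low (3.7%, against 2.27%). Gm10052, a transcribed pseudogene at 0 in all footprint libraries with 10.5, 136 and 285 FPKM in RNA, was the lowest entry of the ranking. Noncoding hosts of small nucleolar RNAs stood at a median of 0.11 (13 tested of 19), with Snhg3 high at 2.73 ± 0.40 and Gas5, whose mature RNA is bound by ribosomes, uncalled at 1.20 ± 0.23.

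Across coding genes the ratio went with RNA level, and with genomic span and GC content near the start, which its calculation did not use. From the lowest to the highest decile of the 7512 genes, median genomic span went from 45.9 to 8.29 kb, median RNA level from 14.6 to 32.2 FPKM, and the median GC content of the first 50 transcribed bases, for the 6168 genes with a window, from 72% to 64%. The share with an ATG in those 50 bases was 37.4% in the lowest and 29.5% in the highest decile, with no even trend between (31.3% in decile 2, 33.8% in decile 8), and genes with and without one had median ratios of -0.02 and 0.02. The RNA level enters the ratio, and the RNA trend was not even, with the lowest median, 11.4 FPKM, in decile 3. Across genes, Spearman's rho with the ratio was -0.39 for span and 0.24 for RNA level, as a description over genes that share all libraries.

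**Figure D4:**
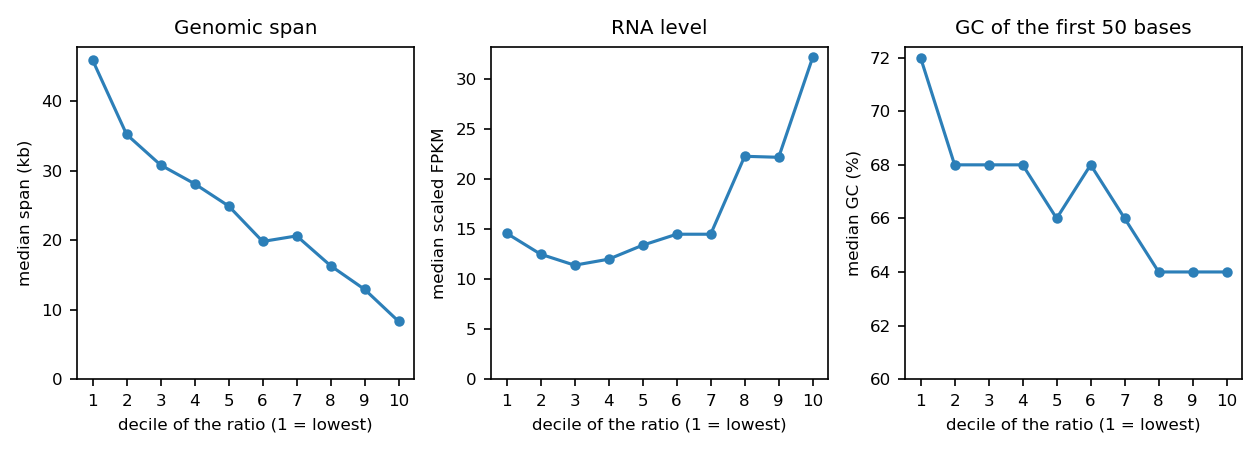
Medians over coding genes by decile of the footprint-to-RNA ratio (x axis, 1 is the lowest): genomic span in kb, RNA level in scaled FPKM, and GC content in percent of the first 50 transcribed bases (axis from 60%). Span falls from 45.9 to 8.29 kb and GC from 72% to 64% between the outer deciles, while RNA level is lowest in decile 3.

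Both control transfections gave nearly the same ranking. Across the 7739 genes the ratios of GFP esiRNA and mock libraries had a Spearman's rho of 0.96. A limma test of the difference between both controls called 0 genes (0.0% of 7739), with a smallest adjusted p of 1; 12 genes (0.155%) had an unadjusted p under 0.05. Chance alone would place a fraction of about 0.05 of the genes there, far more than were found. The p-values of this difference were thus too large, and the test could not decide whether the controls differed. The fit did not account for variation shared between GFP and mock libraries, and its part in this was not tested. The median SE of the difference was 0.32, so differences of that order were not detectable. The missing calls do not show that the controls were alike. List medians, given here for GFP and then mock libraries, lay close for many lists and apart for some lists of small RNAs. Respiratory chain subunits had 1.15 and 1.04, small-subunit ribosomal proteins 0.84 and 0.74, and upstream reading frame mRNAs -0.55 and -0.48. Nuclear long noncoding RNAs had -2 and -2.02, and microRNA genes 0.53 and -0.46. A mixed list of small nuclear RNAs with Rn45s, RNase P RNAs and telomerase RNA had -0.5 and -1.01. Its 2 tested genes of the snRNA type, Rnu11 and Rnu12, had medians of 3.76 and 4.1.

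A closely similar ranking was present in libraries that took no part in it. In the 8 libraries of cells given the tRF-GG inhibitor, processed in the same way, all 85 high genes had ratios above 1 (median 1.86, against 1.83 in controls), and all 176 low genes had ratios below 0, of which 174 lay below -1 (median -1.71, against -1.79). Spearman's rho across all genes between control and inhibitor ratios was 0.96. Respiratory chain subunits had a median of 1.10 there, large-subunit ribosomal proteins 0.86, zinc finger genes -0.42 and nuclear long noncoding RNAs -1.88. Inhibitor RNA 1 stood apart in content: Rn45s took 62.7% of its summed FPKM, and 6697 genes reached 1 FPKM. In control RNA libraries 9326 to 11817 genes did so. Transcript lengths and the division of reads among similar genes were the same in both sets, so their part in the ratio would recur. No test of inhibitor against control was made here.

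**Figure D5:**
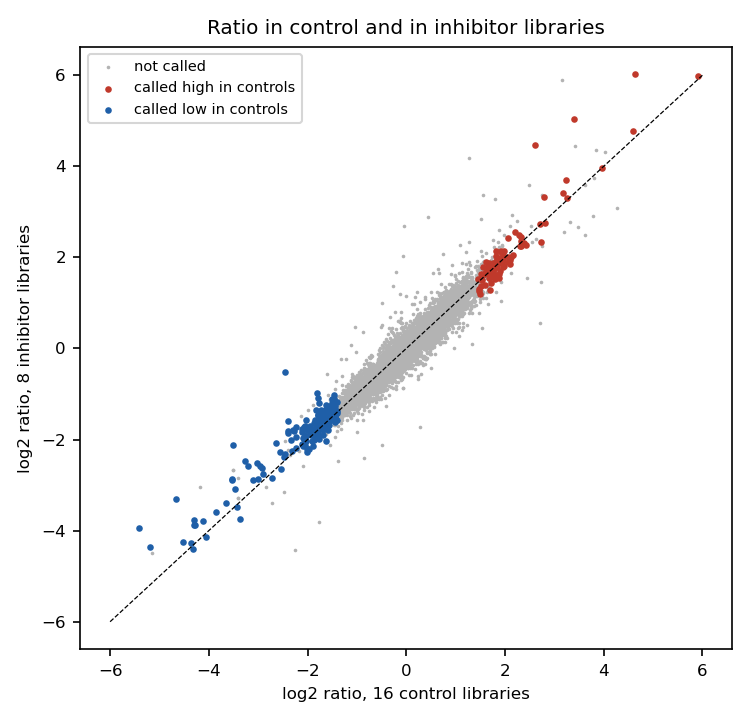
Log2 footprint-to-RNA ratio of each gene tested in the 8 inhibitor libraries (y axis) against the 16 control libraries (x axis), with a dashed line of equality. Red and blue points are the 85 genes called high and the 176 called low in controls, and all lie on the same side of 0 in the inhibitor libraries.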

How the data were processed

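Deposited values were FPKM per gene in 2 tables, 1 for each assay; per the file headers they are RSEM estimates for RefSeq genes, and the submitters' processing notes name the mm10 genome, RSEM, Bowtie2, TopHat and CASAVA 1.8.2. For all but the last, no version is given in these sources. RSEM divides reads that match several genes by an estimate. Of 23917 genes, 23871 (99.8%) matched RefSeq (GRCm38.p6) by symbol, accession or synonym, which gave coordinates and sequences. No read counts were used, so depth is unknown and no counting intervals are given; relative depth was read from the steps between low values. No library pair held identical values (0 pairs).

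FPKM were scaled within each table by a median of ratios over genes with at least 5 FPKM in every control library (3263 in footprints, 4275 in RNA). log2(scaled FPKM + 1) was fitted in limma 3.58.1 (R 4.3.3) with 4 group means, 12 residual degrees of freedom and trended, robust spread; treat tested a distance of 2-fold from the median gene, two-sided, with Benjamini-Hochberg adjustment over 7739 genes and a threshold of 0.05. The median footprint minus RNA difference, -1.05, was subtracted. The ratio of a footprint library is its value over the mean of the 8 RNA libraries. Ranges over footprint libraries therefore leave out the spread of the RNA libraries, which the SE includes. The script was tested on simulated data. Python 3.11.15, numpy 2.4.6, pandas 2.3.3, scipy 1.17.1 and matplotlib 3.10.9 made tables and plots.

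Members, gene lists and tests were chosen with earlier results of these data known. By rule, the text draws on the 12 highest and 12 lowest called genes with an mRNA accession, the 6 highest and 6 lowest noncoding genes, and the 3 highest and 3 lowest members of each list. Further called members and genes named for their known roles (Cox7c, Ndufs5, Rps13, Rps27, Eef1a1, Tpt1, Npm1, Mrpl15, Atf4, Tfrc, Odc1, Azin1, Rian, Kcnq1ot1, Firre, Bc1 and Hist1h4i, with those so marked in the text) were chosen after their values were seen. One gene within this rule is not reported here.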

Additional observations from a re-analysis of the deposited data

Results flagged for a closer look

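The ratio in the 8 footprint libraries was checked for a single library far from the rest in 209 values, and 4 were picked out; chance alone picks out about 1 in 20. For Rps27, GFP footprint 3 stood at -4.17, against -0.01 to 1.90 in the others, while the sum of Rps27 and its similar copy Rps27rt ranged from -0.1 to 0.83. For Eif1ax, mock footprint 4 was at 0.86 against 1.21 to 1.38. For Selk, the same library was at 1.78 against 1.11 to 1.39; mock footprint 4 had the lowest relative depth of the footprint libraries, 24.8%. For Rps19-ps3, GFP footprint 2 was at 0.30 against -0.64 to -0.49, with 0 to 0.921 FPKM in footprints.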

How the results depend on the processing

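Against 85 high and 176 low genes, the counts were 158 and 413 with a pseudocount of 0.1, 15 and 47 with 5, 56 and 814 without a filter, 29 and 64 with FPKM as deposited, 40 and 767 with the tables aligned by summed FPKM (4.96% of calls high, against 32.6%), 2219 and 2286 in a plain test against the median gene, 12 and 36 in GFP libraries alone, and 14 and 70 in mock libraries alone. With an RNA mean of at least 20, 28 were high. The other alternatives stayed within 1.5 times. Leaving out 1 library at a time gave 59 to 100 high and 145 to 192 low genes, and leaving out all 4 control libraries numbered 1, which include mock RNA 1, gave 71 and 133. The difference between GFP and mock gave 0 calls in all 28 alternatives with both controls, with 1 to 232 genes at an unadjusted p under 0.05. Among the single genes, 8359 values kept direction and call, 261 gained a call, 416 lost it and 0 changed direction. Of 91 named genes called, 15 lost the call in at least 1 fit without 1 library, 16 without the libraries numbered 1, 63 in GFP libraries alone and 54 in mock libraries alone. Over all alternatives 20 of 38 list medians kept their sign and 18 changed it, among them initiation and elongation factors, aminoacyl-tRNA synthetases, matrix, cytoskeletal and splicing lists. Apart from summed FPKM and no filter 30 kept it; pluripotency factors (-0.02 with a pseudocount of 5, -0.07 with an RNA mean of at least 20), chromatin enzymes, cyclins, replication genes and the 4 lists of small or host RNAs did not. The cause of these shifts was not tested. Rescaling footprints to coding length was not run, since coding lengths were not used here.

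Footprint and RNA libraries share numbers but were not paired by them: the correlation of same-numbered libraries was -0.16 for GFP 1 and over 0.1 in the others, and 5 of 8 footprint libraries went best with their own number. GFP footprint 1 went best with GFP RNA 2 (0.5) and GFP footprint 2 with GFP RNA 1 (0.27); no numbers were exchanged. With the number within each transfection as a replicate block, 94 genes were high and 178 low, and 10 of the named genes lost their call. This block does not join GFP with mock libraries.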
